A study of Homo sapiens with 9 samples.

Results

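The cytosolic ribosome is built from a small and a large subunit, each an RNA scaffold dressed with ribosomal proteins, and every growing cell spends a large part of its transcription on these proteins. Most of their mRNAs begin with a C followed by an unbroken run of pyrimidines, the terminal oligopyrimidine (TOP) tract. Through it mTORC1 and the RNA-binding protein LARP1 switch the translation of these mRNAs. The transcripts are short, abundant and copied many times into the genome as processed pseudogenes, and several proteins have a second, less used gene (a paralog). Here 85 genes of this family were followed in H1299, an established line from a human lung carcinoma of the non-small cell type. They are the protein-coding genes named RPL or RPS with a number, plus RPLP0, RPLP1, RPLP2 and RPSA, with pseudogenes and the RPS6K kinases left out. They comprise 53 large subunit and 32 small subunit genes, out of 58721 genes counted.

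The study holds 9 libraries of total RNA, 3 from cells in serum free medium (control), 3 from cells given siCLOCK (small interfering RNA against CLOCK, a circadian transcription factor) and 3 from cells given 0.1 mM melatonin. The labels name neither a treatment time nor a non-targeting siRNA, so the controls compared with siCLOCK may not have been transfected. The labels call the 3 samples of a group independent but do not say that they were separate cultures, so the p-values speak only of the spread between these 9 samples, which may be technical. In bulk RNA such as this, fewer cells of a type and less RNA per cell cannot be told apart.

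Counts assigned to genes ranged from 15384539 to 19192962 per library. The libraries fell into 2 sets by their share of unmapped reads, divided at 1.8%. What made the sets differ was not tested. The first set held all 3 controls and siCLOCK replicates 1 and 2, at 1.22% to 1.36% unmapped. The second held siCLOCK replicate 3 and all 3 melatonin libraries, at 2.24% to 2.34%, so melatonin and the second set cannot be told apart except through that 1 siCLOCK library. CLOCK itself was at 39.0, 38.6 and 44.4 CPM (gene counts scaled to a common library size) in control. It was at 20.9, 32.02 and 38.1 in siCLOCK replicates 1, 2 and 3. The third of these was close to the controls and is therefore called the library labelled siCLOCK replicate 3. The 5 epithelial markers summed to 389 to 481 CPM in control, 397 to 499 in siCLOCK and 347 to 353 in melatonin. Leukocyte markers stayed under 0.420 CPM in sum in every library, with 1 of 5 at 0.

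The start of the mRNA is the feature that ties the family together, so start windows are printed for some members, from RefSeq on GRCh38.p14. The 9 that come first have a tract and were picked from the members called in a comparison below. Each window runs 5′ to 3′ with 10 bases before the annotated start and 20 from it. Capitals mark the pyrimidine tract, which was called where the start is a C followed by at least 4 further C or T.
RPS27 (chr1:153990752-153990781, plus strand): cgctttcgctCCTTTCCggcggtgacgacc
RPS21 (chr20:62387093-62387122, plus strand): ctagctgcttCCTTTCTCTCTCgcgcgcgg
RPS25 (chr11:119018324-119018353, minus strand): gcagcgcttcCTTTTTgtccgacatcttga
RPS19 (chr19:41860245-41860274, plus strand): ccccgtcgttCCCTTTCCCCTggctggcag
RPSA (chr3:39406710-39406739, plus strand): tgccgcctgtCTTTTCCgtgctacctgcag
RPL39 (chrX:119791611-119791640, minus strand): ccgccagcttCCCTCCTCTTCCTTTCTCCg
RPL12 (chr9:127451387-127451416, minus strand): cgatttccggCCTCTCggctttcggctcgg
RPL21 (chr13:27251548-27251577, plus strand): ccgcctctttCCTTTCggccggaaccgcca
RPL28 (chr19:55385922-55385951, plus strand): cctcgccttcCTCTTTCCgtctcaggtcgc
In RPL39 the tract filled 19 of the 20 bases printed after the start, in RPS21 it had 12 bases and in RPL12 and RPS25 it had 6. All 9 of these windows cross from the promoter into the first exon, in the 5′ untranslated region.

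A tract was absent at the annotated start of RPS15, in which the start is followed by mixed bases, and of 5 paralogs. It was also absent in other members that are not paralogs, among them RPL27, which was called with a term for the library set (below). RPL22L1 was the paralog with a tract. The windows of RPL22L1 and of 4 genes without a tract are shown for contrast.
RPS15 (chr19:1438386-1438415, plus strand): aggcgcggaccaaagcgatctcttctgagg
RPL7L1 (chr6:42879606-42879635, plus strand): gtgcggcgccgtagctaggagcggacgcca
RPL26L1 (chr5:172958719-172958748, plus strand): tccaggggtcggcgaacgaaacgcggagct
RPS27L (chr15:63157458-63157487, minus strand): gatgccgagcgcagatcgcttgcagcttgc
RPL22L1 (chr3:170870176-170870205, minus strand): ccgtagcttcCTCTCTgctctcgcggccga
Of the 68 members with an entry in the promoter table, 47 (69.1%) had a tract at an annotated start. The share was 74.2% among the 62 that are not alternate paralogs and 1 of 6 among the paralogs. It was 6.80% of 10875 other genes tested and 5.14% of all 27305 symbols in the table. Among mitochondrial ribosomal protein genes, whose mRNAs serve a separate ribosome, it was 6 of 69, and among the listed TOP translation factors 10 of 11. It was 4 of 10 among the snoRNA host genes listed as having TOP RNAs. RPL23 and RPL39L were among the 17 members with no entry. The letters CACGTG, a motif bound by CLOCK with its partner BMAL1 and the same on both strands, lay in the 300-base promoter window (250 bases before the start and 50 after) of 5 of the 68 members (7.35%). These were RPL7L1, RPL13A, RPL19, RPS19 and RPS28. The share over all symbols was 8.77%, and 12.5% over other genes tested.

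Per kilobase of mRNA, the control levels of the members covered more than 3 orders of magnitude, as the plot of ranked levels shows. The highest were RPS20 at 3392 ± 121 CPM per kb (SD, n = 3) and RPL12, at the base of the ribosome's P stalk, at 2874 ± 19.1. RPS2, at the mRNA entry site, stood at 2756 ± 257, RPL7A at 2578 ± 64.7 and RPLP0, the scaffold of the P stalk, at 2524 ± 166. RPS2, RPL7A and RPLP0 did not differ beyond their spread. In total 52 members were at 500 CPM or more in control. The lowest measured were RPL3L, the striated muscle paralog of RPL3, at 0.593 ± 0.0240 CPM per kb, RPS10 at 4.02 ± 0.209 and RPL17 at 4.72 ± 0.484. RPL10L, the testis paralog of RPL10, had no count in any library, which allows at most 0.195 CPM. Of the 85 members, 83 had enough counts to be tested.

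**Figure D1:**
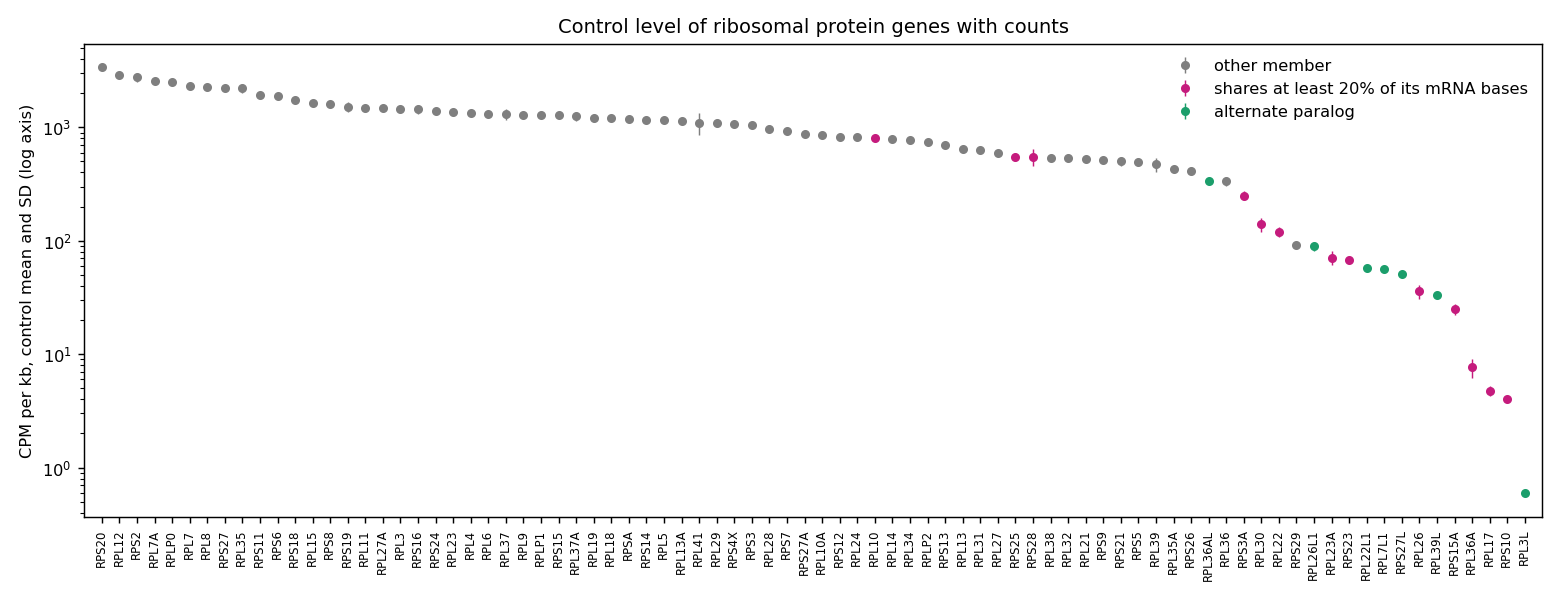
Control level of the members with counts, in CPM per kb of mRNA on a log axis, as mean and SD over 3 libraries. Genes are ordered by level and coloured by whether they are alternate paralogs or share at least 20% of their mRNA bases with another annotated gene. Under 130 CPM per kb, each gene shown except RPS29 is a paralog or shares bases in this way.

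Most of the lowest levels belonged to paralogs or to genes whose annotation overlaps another gene. Of the 17 members under 130 CPM per kb, counting those without counts, 7 were alternate paralogs, 9 shared at least 20% of their mRNA bases with another annotated gene, and the remaining one was RPS29, a zinc-binding protein of the small subunit head. RPS10 shares 77% of its bases with the readthrough gene RPS10-NUDT3, RPL17 82.6% on its own strand with others including RPL17-C18orf32, and RPL26 59.0% with AC135178.2. All 3 of those partner genes had 0 counts in every library. RPL30, RPS23 and RPL23A overlap AP003352.1, ATG10 and AC010761.1 on the opposite strand. For these 3 the sum of the 2 strand-specific counts was 23.5, 11.8 and 11.4 times the count made regardless of strand, and for RPS3A, which overlaps SH3D19, it was 3.23 times. In each of the other members it was at most 2 times. The files set reads that fall on several genes aside as ambiguous, and the counts of RPS10, RPL17, RPL26, RPL30, RPS23, RPL23A and RPS3A hold none of these. Reads may also be divided between a member and its near-identical copies, which was not tested. Processed pseudogenes of all genes took more of the gene counts in the second set (values below). Counts on the pseudogenes named for a member, as a share of the member's own, were higher in the second set in 53 of 76 members and lower in 15. The share was 32.2% and 106% in RPS10, 16.8% and 57.2% in RPL26 and 22.2% and 37.6% in RPL17 in the first and second set, and 66.1% and 59.9% in RPL23A.

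The members took 6.35%, 6.51% and 6.05% of gene counts in the 3 controls, 6.81%, 6.37% and 6.10% in siCLOCK and 6.47%, 6.67% and 6.99% in melatonin. Each share has a 95% Wilson interval, which covers counting error only, such as 6.34% to 6.36% in control replicate 1. The ranges of all 3 groups overlap, and the spread within a group was far wider than the counting error. Large subunit genes gave 1.69 to 1.77 times the counts of small subunit genes in control, 1.72 to 1.76 in siCLOCK and 1.72 to 1.75 in melatonin, so the balance of the subunits was alike in all libraries. The 1145 pseudogenes named for members took 0.0532% to 0.0611% in the first set and 0.0963% to 0.110% in the second, without overlap. Processed pseudogenes of all genes, members included, took 0.204% to 0.218% and 0.364% to 0.378%, also without overlap. Mitochondrial ribosomal protein genes took 0.416% to 0.481% in all.

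**Figure D2:**
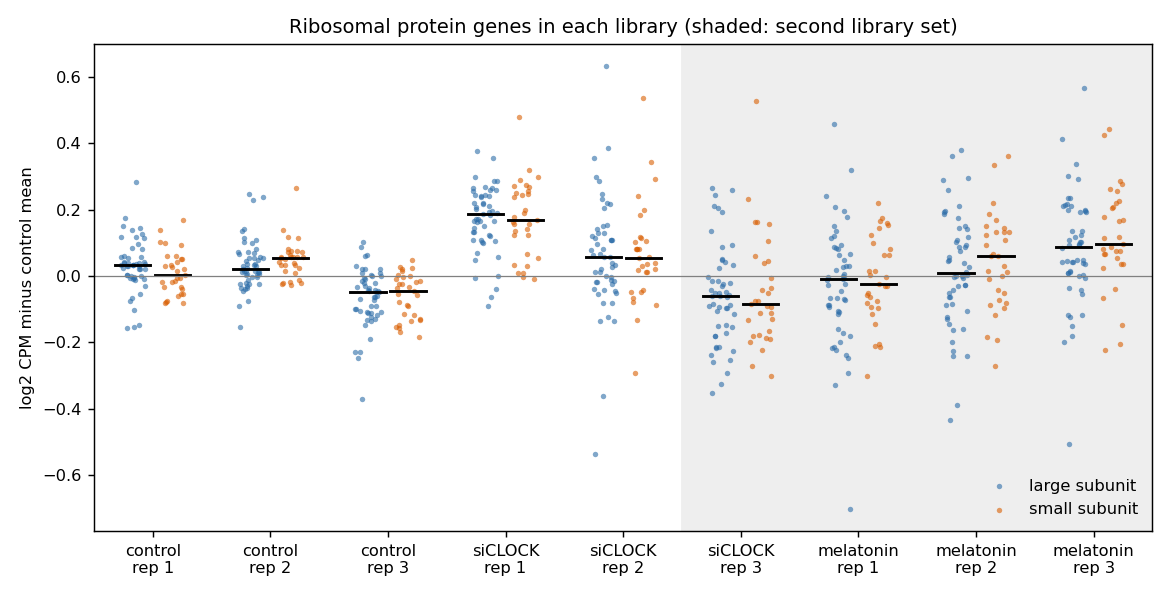
Each point is 1 of 83 members in 1 library, as log2 CPM minus the mean of the 3 controls, with black bars for the median of each subunit and shading for the second library set. The median over members is highest in siCLOCK replicate 1, at 0.18, and lowest in the library labelled siCLOCK replicate 3, at -0.07.

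The plot of offsets shows the members gene by gene, and libraries of 1 group differed from each other as much as groups did. The median member stood at 0.03, 0.03 and -0.05 log2 CPM relative to the control mean in the 3 controls. It stood at 0.18, 0.06 and -0.07 in siCLOCK and at -0.01, 0.03 and 0.09 in melatonin. In siCLOCK replicate 1, 76 of 83 members lay above the control mean, and in the library labelled siCLOCK replicate 3 only 23 did. The library with the least CLOCK was also the one with the highest median member. Melatonin replicate 3 came next, and CLOCK had a log2 fold change of -0.006 in melatonin against control. A link between CLOCK and the members was not tested. Large and small subunit medians were furthest apart in melatonin replicate 2, at 0.007 and 0.06. The median over all genes tested lay within 0.02 of 0 in each.

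Between siCLOCK and control, no ribosomal protein gene passed the test, an edgeR quasi-likelihood F test adjusted by the Benjamini-Hochberg method over 16441 genes with a threshold of 0.05. Over all genes 0.122% passed. CLOCK itself, the siRNA target, did not pass either, at a log2 fold change of -0.42. It did not pass within the first set (-0.62), and passed as lower with a term for the library set (-0.62). By limma-voom 0 members passed and by DESeq2 1 was higher, with no share of all genes given for these methods. At an unadjusted p under 0.05 there were 11 members, all with a positive log2 fold change, and 1355 of all 16441 genes. The median log2 fold change was 0.05 over the members, with 64 of 83 above 0, and 0.003 over all genes tested. It was 0.06 over large subunit genes and 0.05 over small subunit genes.

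The 3 members with the smallest p were RPL38, RPS27 and RPS29. RPL38, a short protein of the large subunit, was at 252, 229 and 218 CPM in control and at 284, 273 and 278 in siCLOCK. Every siCLOCK library was above every control, but the difference, 0.26 ± 0.06 (SE) on the log2 scale, missed the threshold (adjusted p = 0.172). RPS27, a zinc-finger protein of the small subunit, was at 800, 807 and 788 CPM in control and at 964, 977 and 893 in siCLOCK. The groups again did not overlap, with a log2 fold change of 0.24 ± 0.07 (adjusted p = 0.253). RPS29 was at 63.9, 61.3 and 62.1 CPM in control and at 76.7, 66.1 and 90.0 in siCLOCK. Its siCLOCK libraries differed among themselves by more than the lowest of them differed from control, and 0.31 ± 0.09 did not pass (adjusted p = 0.287).

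Within the first set, where siCLOCK replicates 1 and 2 carry the lower CLOCK, the median member was 0.11 above control on the log2 scale and 74 of 83 were above 0, and again 0 members passed (0.0492% of 16256 genes did, 0.0308% higher and 0.0185% lower). At an unadjusted p under 0.05 there were 22 of 83 members and 1287 of all 16256 genes. RPS21, a small subunit protein, came closest. Its CPM was 224, 221 and 186 in control against 292 and 266 in these siCLOCK libraries, a log2 fold change of 0.41 ± 0.09 (adjusted p = 0.0977). Leaving out siCLOCK replicate 1 gave 2 members higher, where 0.405% of all genes were, and leaving out siCLOCK replicate 2 gave 3, where 0.823% were. Each of these fits has a single siCLOCK library, so that the spread comes from the controls alone and the siCLOCK library is assumed to vary as they did.

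Between melatonin and control, 9 ribosomal protein mRNAs were higher and 3 lower, among 83 tested. Over all genes 23.1% passed, 11% higher and 12.1% lower, so the members' 12 calls are a smaller share than that of all genes. Those higher were RPL23, RPS27, RPS29, RPL21, RPS27A, RPL12, RPL28, RPS3A and RPS15. Those lower were RPL39L, RPS19 and RPSA. All lay between log2 fold changes of -0.53 and 0.47. The median was 0.03 over members and 0.01 over all genes, with 4 large subunit genes higher and 1 lower, and 5 small subunit genes higher and 2 lower. Melatonin and the second library set cannot be told apart in these values.

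**Figure D3:**
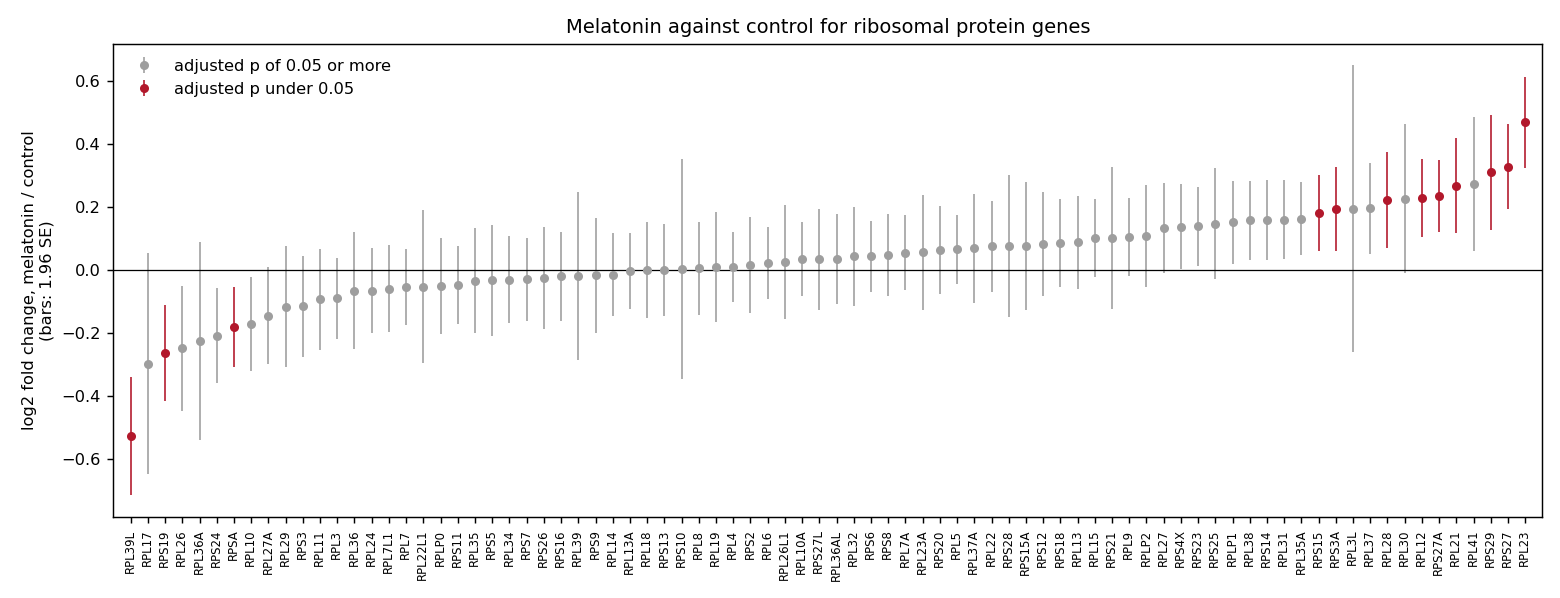
Log2 fold change of melatonin against control for the members tested, ordered by size, with bars for the 95% interval and the 12 members past the threshold in red. RPL39L lies lowest at -0.53 and RPL23 highest at 0.47, and most others lie within 0.2 of 0.

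RPL23, a large subunit protein of the subunit interface that can also bind the p53 regulator MDM2, rose most. It was at 801, 843 and 876 CPM in control, 942, 815 and 993 in siCLOCK and 1152, 1092 and 1243 in melatonin. Each melatonin library was above all 6 others. The log2 fold change was 0.47 ± 0.07 (adjusted p = 0.000168) against control and 0.34 ± 0.07 (adjusted p = 0.00361) against siCLOCK.

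RPL12, which joins the P stalk to the large subunit where elongation factors dock, was at 1425, 1444 and 1432 CPM in control. It was at 1592, 1355 and 1414 in siCLOCK and at 1696, 1658 and 1686 in melatonin. The melatonin libraries stood together above the other 6, with a log2 fold change of 0.23 ± 0.06 (adjusted p = 0.0136) against control and 0.21 ± 0.06 (adjusted p = 0.0286) against siCLOCK. The other stalk proteins did not pass: RPLP0 had a log2 fold change of -0.05 ± 0.08, RPLP1 of 0.15 ± 0.07 and RPLP2 of 0.11 ± 0.08. RPL21 was at 351, 321 and 343 CPM in control and 390, 405 and 427 in melatonin, without overlap. In siCLOCK it was at 404, 319 and 390. Replicate 1 thus lay among the melatonin values, and the library labelled siCLOCK replicate 3 beside the lowest of them. RPL28 was at 714, 640 and 598 CPM in control and 686, 796 and 795 in melatonin, and here the groups overlapped. Its log2 fold change was 0.22 ± 0.08 (adjusted p = 0.0469).

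In the small subunit, RPS27 was at 896, 1025 and 1086 CPM in melatonin, above the controls given above, with a log2 fold change of 0.33 ± 0.07 (adjusted p = 0.00209). RPS27A, which is made as a fusion with ubiquitin, was at 596, 605 and 630 CPM in control, 664, 616 and 657 in siCLOCK and 710, 711 and 732 in melatonin. The melatonin libraries were above all others (0.23 ± 0.06, adjusted p = 0.00693). RPS15, of the small subunit head near the decoding site, was at 732, 728 and 663 CPM in control, 733, 675 and 726 in siCLOCK and 797, 784 and 826 in melatonin. These were again the highest of all libraries, by a small margin (0.18 ± 0.06, adjusted p = 0.0394). RPS29 was at 69.5, 78.7 and 83.8 CPM in melatonin, above control but within the siCLOCK range (0.31 ± 0.09, adjusted p = 0.0215). RPS3A, at 236, 211 and 198 CPM in control and 237, 244 and 256 in melatonin, was separated by about 1 CPM (0.19 ± 0.07, adjusted p = 0.0464). Its siCLOCK libraries lay among the melatonin libraries. As log2 CPM relative to the control mean, siCLOCK stood at 0.24, 0.20 and 0.16 and melatonin at 0.15, 0.19 and 0.26.

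RPL39L, the testis-enriched paralog of the exit tunnel protein RPL39, fell most. It was at 26.3, 24.4 and 23.8 CPM in control, 24.1, 22.6 and 20.25 in siCLOCK and 15.2, 18.9 and 17.4 in melatonin. The melatonin libraries were the lowest of all, at -0.53 ± 0.10 (adjusted p = 0.000655) against control and -0.37 ± 0.10 (adjusted p = 0.0123) against siCLOCK. RPL39 itself was at 176, 221 and 173 CPM in control and 166, 177 and 218 in melatonin, and the groups overlapped. RPS19, the first gene linked to Diamond-Blackfan anaemia, was at 856, 830 and 715 CPM in control and 647, 660 and 691 in melatonin, while the library labelled siCLOCK replicate 3 was at 647. Control and melatonin did not overlap (-0.26 ± 0.08, adjusted p = 0.0201). RPSA, also known as the laminin receptor, was at 1227, 1276 and 1195 CPM in control, 1343, 1166 and 1161 in siCLOCK and 1063, 1084 and 1112 in melatonin. The melatonin values were below all others (-0.18 ± 0.06, adjusted p = 0.0491).

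**Figure D4:**
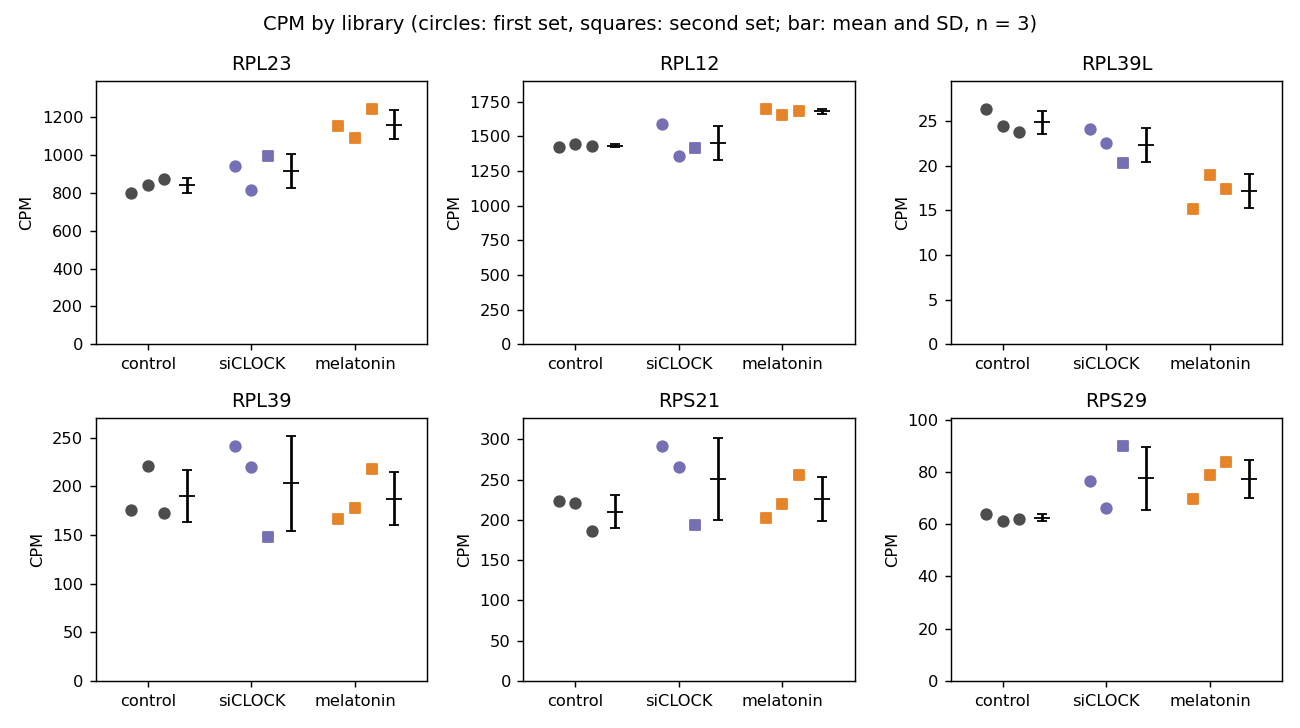
CPM of 6 members in every library, with circles for the first library set, squares for the second, and bars for the mean and SD of each group of 3. RPL23 and RPL12 are highest and RPL39L lowest in the 3 melatonin libraries. In RPL39 and RPS21 the library labelled siCLOCK replicate 3 lies below the other 2 siCLOCK libraries, and in RPS29 above them.

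Melatonin against siCLOCK gave 2 members higher, RPL23 and RPL12, and 1 lower, RPL39L, where 17.5% of all genes passed, 7.43% higher and 10.1% lower. The median member was at -0.04 and the median gene at 0.003. This comparison uses the same melatonin libraries as the previous one. Without the library labelled siCLOCK replicate 3 there were 16 members lower instead of 1, and 3 higher, where 12.9% of all genes were lower and 10.2% higher.

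The 4 libraries of the second set were then compared among themselves, 3 of melatonin with the single library labelled siCLOCK replicate 3. That library was assumed to vary as the melatonin libraries did, which was not tested. As chi-square per degree of freedom over genes, pairs of melatonin libraries differed by 1.69 to 3.22 and siCLOCK replicates 1 and 2 by 9.22. In this comparison 22 members were higher with melatonin and 2 lower, where 17.6% of 17013 genes passed, 7.92% higher and 9.67% lower. The median member was at 0.11. RPL12 (0.25 ± 0.06, adjusted p = 0.000939), RPL23 (0.22 ± 0.06, adjusted p = 0.00310), RPL28 (0.31 ± 0.06, adjusted p = 1.6e-05) and RPS27 (0.16 ± 0.06, adjusted p = 0.0437) were called higher as they had been against control. RPL21, RPS15, RPS27A and RPS3A, also called higher against control, were not called here. RPS28 (0.36 ± 0.06) and RPLP2, an acidic protein of the P stalk (0.33 ± 0.06), were higher here but not against control. RPS29 was lower, at -0.22 ± 0.07 (adjusted p = 0.0144), the opposite of its direction against control. RPL39L (-0.23 ± 0.10, adjusted p = 0.109), RPS19 (0.04 ± 0.06) and RPSA (-0.10 ± 0.06) did not pass. The count turned on single libraries: it was 49 higher without melatonin replicate 1, 6 without melatonin replicate 2 and 5 without melatonin replicate 3, where 12%, 4.05% and 5.15% of all genes were higher.

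A fit over all 9 libraries with a term for the set, whose value comes from siCLOCK replicate 3 against siCLOCK replicates 1 and 2, put the median member 0.19 lower in the second set, with 10 of 83 above 0. Of the members 3 passed as lower, RPL39 and RPS21 among them, and 0 as higher, against 0.967% of all genes, of which 0.76% higher and 0.207% lower. RPL39 was at 241 and 220 CPM in siCLOCK replicates 1 and 2 and at 148 in replicate 3, a log2 difference of -0.64 ± 0.14 (adjusted p = 0.0213). RPS21 was at 292, 266 and 194 CPM in the same order (-0.52 ± 0.12, adjusted p = 0.0317). The set term carries the difference in CLOCK between these libraries as well as the set, and the 2 cannot be told apart. Without siCLOCK replicate 2 the members lower numbered 25, where 4.03% of all genes were lower. That value sets 1 siCLOCK library against 1, with the spread taken from the controls and the melatonin libraries.

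With the set term, melatonin against control gave 5 members higher, RPL27, RPL39, RPS21, RPS25 and RPS27, and 0 lower, where 4.68% of genes passed, 1.72% higher and 2.96% lower. The median member rose from 0.03 to 0.23 and 71 of 83 were above 0, while the median gene was at 0.01. RPS27 was the 1 call kept of the 12, at 0.45 ± 0.11 (adjusted p = 0.0241). Of the 12, 11 had the same sign as before, and RPS29 turned to -0.02 ± 0.13 (adjusted p = 0.952). RPL39 moved from -0.02 to 0.62 ± 0.17 (adjusted p = 0.0312) and RPS21 to 0.63 ± 0.14 (adjusted p = 0.0120). RPL23 fell to 0.29 ± 0.12 (adjusted p = 0.166) and RPL39L to -0.32 ± 0.16 (adjusted p = 0.275), neither past the threshold. In 3 of the 11 calls lost the fold was larger than before, RPL28 at 0.42 ± 0.12 (adjusted p = 0.0557), RPL12 at 0.29 ± 0.11 (adjusted p = 0.134) and RPS3A at 0.25 ± 0.12 (adjusted p = 0.240), and in 7 it was smaller with the same sign. RPS25, a small subunit protein that some viral mRNAs need for initiation, was at 480, 485 and 421 CPM in control, 576, 544 and 438 in siCLOCK and 465, 509 and 559 in melatonin, and had no call without the set term. In siCLOCK against control the set term gave 1 member higher, RPS21 (0.41), and 0 lower, where 0.706% of genes passed, 0.444% higher and 0.262% lower. In melatonin against siCLOCK it gave 1 higher, RPLP2 (0.33), and 0 lower, where 5.85% passed, 2% higher and 3.85% lower. This is the same difference as within the second set above, with a median member of 0.11 in both fits. Here the spread also came from the first set, and fewer members were called.

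The 2 strand-specific counts gave a second reading of each gene. These libraries were not stranded, the totals of the 2 columns being in a ratio of 1.01 to 1.05 in all 9, but single short mRNAs had their own uneven split. In RPS15 the first strand column held 66.8%, 72.0% and 73.5% of the reads in control and 68.8% and 68.7% in siCLOCK replicates 1 and 2. It held 58.9% in the library labelled siCLOCK replicate 3 and 55.2%, 56.5% and 56.4% in melatonin. In RPS15 the siCLOCK library of the second set was thus closer to the melatonin libraries than to the other siCLOCK libraries. RPS27A held 53.2% to 56.9% in the first set and 61.6% to 64.3% in the second, RPL12 42.6% to 46.8% and 50.2% to 52.4%, and RPL23 62.9% to 66.3% and 67.7% to 73.6%. Among members with at least 2000 reads in each library and no large antisense share, the sets did not overlap in 22 of 65 (33.8%), and among all 1252 such genes in 15.8%. With at least 200 reads the counts were 22 of 73 members and 8.29% of 7155 genes. Among the 11 of the 12 called members that could be measured this way, 7 had sets that did not overlap. These members were called from the same reads, between groups that also differ in set, so this count is not a separate test.

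**Figure D5:**
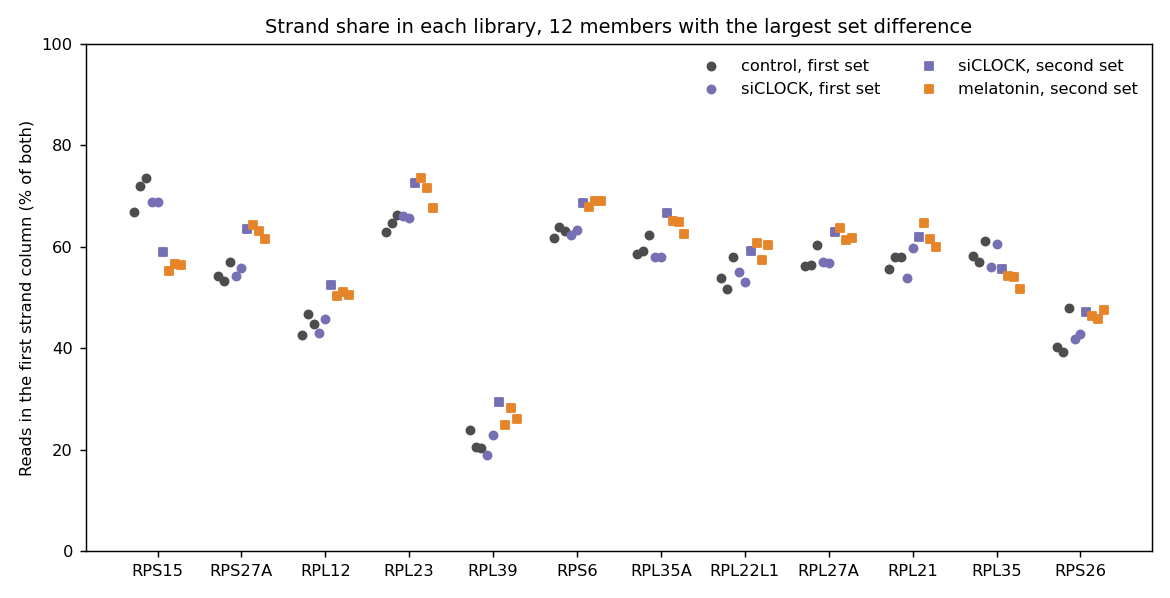
Share of a gene's strand-split reads that fell in the first strand column, in percent, for the 12 members with the largest difference between library sets. Each symbol is 1 library, circles for the first set and squares for the second. The members were picked for a set difference that includes the siCLOCK square. That square is at 58.9% in RPS15, against 66.8% to 73.5% in the first set, while in RPL35, at 55.6%, it is nearer to siCLOCK replicate 1 (55.9%) than to any melatonin library (51.7% to 54.3%).

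The fold change of these members depended on the strand column read. Melatonin against control for RPS15 was -0.16 ± 0.07 (adjusted p = 0.117) in the first strand column and 0.77 ± 0.11 (adjusted p = 4.34e-05) in the second. RPS27A was 0.42 ± 0.07 (adjusted p = 0.000360) and -0.05 ± 0.07 (adjusted p = 0.703). RPL12 was 0.40 ± 0.07 (adjusted p = 0.000447) and 0.07 ± 0.08 (adjusted p = 0.564). RPL23 was 0.59 ± 0.09 and 0.20 ± 0.09, RPL21 was 0.38 ± 0.08 and 0.10 ± 0.10, and RPL28 was 0.06 ± 0.08 and 0.35 ± 0.09. RPS27 gave 0.30 ± 0.07 and 0.35 ± 0.08 and RPL39L -0.43 ± 0.11 and -0.60 ± 0.13. These 2 members passed on both strands, as no other of the 12 did. The part of the set in the calls of the other 10 was not tested.

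The alternate paralogs apart from RPL39L did not pass in melatonin or siCLOCK against control. RPL36AL, the most abundant at 335 ± 18.1 CPM per kb in control, had a log2 fold change of 0.03 ± 0.07 with melatonin, an interval of -0.11 to 0.18. RPL7L1, a factor of large subunit assembly, was at -0.06 ± 0.07, RPL26L1 at 0.02 ± 0.09, RPS27L, a p53-responsive gene in other cells, at 0.03 ± 0.08 and RPL22L1 at -0.05 ± 0.12. RPL22L1 was lower in melatonin than in the library labelled siCLOCK replicate 3 (-0.32 ± 0.09, adjusted p = 0.00338). Its CPM was 35.1, 22.7 and 35.0 in siCLOCK and 29.1, 25.4 and 30.0 in melatonin, so its siCLOCK libraries spanned the others. RPL3L was at 1.23 to 1.33 CPM in control and 1.38 to 1.64 in melatonin, a log2 fold change of 0.19 ± 0.23.

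The counts by role and by list that follow stand against the 11% of all genes called higher and 12.1% called lower in melatonin against control. Those given with the set term stand against 1.72% higher and 2.96% lower. By role, this comparison called 1 of 4 P stalk genes higher (RPL12) and 1 of 4 genes of mRNA entry and decoding higher (RPS15). Neither gene of the 5S particle, RPL5 and RPL11, which as free proteins can hold MDM2, passed, at 0.07 ± 0.06 and -0.09 ± 0.08. Of 9 exit tunnel genes 0 passed by edgeR, and 2 had an unadjusted p under 0.05. Of 17 Diamond-Blackfan genes tested, 2 were higher (RPS27 and RPS29) and 1 lower (RPS19). TOP members gave 6 higher and 2 lower of 47 with a median of 0.00234, and members with a promoter entry and no tract gave 2 higher and 0 lower of 20 with a median of 0.03. With the set term the order of these medians was the opposite, at 0.23 for TOP members and 0.15 for those with no tract. The median was 0.15 over the 10 members with mRNAs under 500 bases and 0.03 over the 16 of at least 1000 bases, and in siCLOCK against control it was 0.17 and 0.04.

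FAU, which encodes a small subunit protein fused to a ubiquitin-like domain, and RACK1, a scaffold on the small subunit head, lie outside the naming rule. With melatonin their log2 fold changes were 0.07 ± 0.08 and -0.11 ± 0.07, and neither passed. Of 17 TOP translation factors 2 were higher and 3 lower, among them TPT1 (0.34 ± 0.06) and the RNA-binding protein HNRNPA1 (-0.40 ± 0.06). Of 17 genes of mTORC1 and LARP1 control 2 were higher and 3 lower. EIF4EBP1, an mTORC1-regulated repressor of cap-dependent initiation, fell from 148 to 91.5 CPM on average (-0.69 ± 0.09, adjusted p = 2.29e-05). TSC1, an inhibitor of mTORC1, was higher (0.34 ± 0.06) and RHEB, its activator, lower (-0.35 ± 0.07), and LARP1 was lower (-0.21 ± 0.06, adjusted p = 0.0135). With the set term TSC1 still passed (adjusted p = 0.0261) and EIF4EBP1 (0.102), RHEB (0.0589) and LARP1 (0.468) did not.

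Of 13 chaperones and importers of ribosomal proteins, 0 were higher and 3 lower, namely LTV1 (-0.57 ± 0.09), PDCD2L (-0.47 ± 0.12) and BCCIP (-0.28 ± 0.08), with 0 passing under the set term. Of 10 snoRNA host genes listed as having TOP RNAs, GAS5 (0.24 ± 0.08) and SNHG5 (0.24 ± 0.08) were higher and SNHG1 (-0.45 ± 0.08) lower. Mitochondrial ribosomal protein genes gave 1 higher and 11 lower of 77, with a median of -0.08. MRPL15 (-0.57 ± 0.10) and MRPL37 (-0.39 ± 0.07) had the smallest p. With the set term their counts were 2 higher and 0 lower. In siCLOCK against control 0 genes of these 5 lists, nor FAU or RACK1, passed, where 0.0547% of all genes passed as higher and 0.0669% as lower. Of the 77 pseudogenes named for members that were tested, 46 were higher and 4 lower in melatonin against control, and with the set term 0 and 2.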

How the data were processed

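The authors deposited raw counts per gene for each library, as whole numbers regardless of strand and for each strand. Per the submitters' processing notes reads were aligned with STAR 2.7.9a to GRCh38 (hg38), and paired reads of 150 bases came from a BGIseq500. The counter and annotation release are not given in the sources used here. All identifiers matched GENCODE 29, which gave symbols and lengths. The 4 summary lines per file stayed out of library sizes.

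Counts regardless of strand were fitted with edgeR 4.0.16 (R 4.3.3): filterByExpr (16441 genes), TMM scaling, a quasi-likelihood model over all 9 libraries with group as its factor, two-sided F tests, adjusted by Benjamini-Hochberg over all genes tested. CPM are TMM-scaled and shares of counts unscaled. CPM per kb used the median-length coding transcript. SE is the size of the log2 fold change over the square root of F, from which 95% intervals were taken. Strand shares were read for genes whose strand columns sum to within 10% of the count regardless of strand. The scripts were tested on simulated counts. limma 3.58.1 (voom) and DESeq2 1.42.0 were alternatives, as were other scalings, filters, strand columns, a set term and each library left out. The strand shares were added after the strand columns had been seen to differ.

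The members and gene lists were chosen with earlier results of these data known. Named were, per comparison, up to 6 members with the largest rise and up to 6 with the largest fall past the threshold, or the 3 with the smallest p where fewer than 3 passed. Also named were the paralogs, the P stalk and 5S particle genes, the highest and lowest per kb, those with the largest set difference, those that changed between fits, and up to 3 genes from each other list. RPS28 and RPLP2 in the second set, RPL28, RPS15 and RPS3A, the fourth gene of the mTORC1 list, and members quoted for strand or overlap were chosen after their values were seen. Results for a few genes are not reported here, and the plots of single genes leave them out.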

Additional observations from a re-analysis of the deposited data

How the results depend on the processing

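Of the 12 members called in melatonin against control, 12 of 12 remained by DESeq2, limma-voom, RLE or upper-quartile scaling, TMM without the members, protein-coding genes alone and a 5 CPM filter, and 8 and 5 with the first and second strand column. Those higher (9) numbered 14 with the first strand column, 17 with only the 6 libraries compared and 3 at an adjusted p under 0.01. With the set term they numbered 5, where 1.72% of all genes were higher. Counts here and below without a share of all genes beside them are not results about the members. Leaving out 1 library gave 3 (without melatonin replicate 3) to 13 (without siCLOCK replicate 3), where 6.36% and 12.4% of all genes were higher. It gave 5 without control replicate 2 or 3, where 6.45% and 9.18% were, and 4 without melatonin replicate 2, where 6.42% were. Those lower (3) numbered 6 with no filter, 0 with the set term, 8 with only the 6 libraries compared and 1 at an adjusted p under 0.01. Leaving out 1 library gave 1 (without control replicate 1 or 2, or melatonin replicate 1 or 2) to 7 (without siCLOCK replicate 3). In the former fits 8.2% to 8.78% of all genes were lower, and in the latter 14.6%. The median became 0.23 with the set term. RPS15 turned to -0.16 with the first strand column, RPS27A to -0.0486 and RPS3A to -0.0233 with the second, and RPS29 to -0.0235 and RPL39 to 0.62 with the set term. The causes were not tested. In siCLOCK against control members higher (0) numbered 6 with no filter, 1 with the set term, 1 by DESeq2 and 0 to 1 with 1 library left out. The 1 came without siCLOCK replicate 3, where 0.359% of all genes were higher, and with the set term 0.444% were. In melatonin against siCLOCK those higher (2) numbered 4 with upper-quartile scaling, a 5 CPM filter or DESeq2. They numbered 1 with the second strand column, the set term, only the 6 libraries or an adjusted p under 0.01. With 1 library left out they numbered 1 to 4, where 3.71% to 10.2% of all genes were higher. Those lower (1) numbered 5 with no filter and 2 with the second strand column, only the 6 libraries or DESeq2. They numbered 0 with the first strand column, the set term or an adjusted p under 0.01. With 1 library left out they numbered 0 to 16, where 6.18% to 12.9% of all genes were lower. Its median became 0.11 with the set term. With 1 library left out, the first set gave 0 to 3 higher, the second 5 to 49 higher and 0 to 3 lower, and the set term 0 to 2 higher and 2 to 25 lower. Same-numbered libraries had correlated deviations of -0.09 to 0.06 in 9 pairs, so the numbers were not taken as pairs. A replicate block gave 6 higher and 2 lower in melatonin against control, 0 and 0 in siCLOCK against control and 2 and 1 in melatonin against siCLOCK. Depth limits RPL3L, RPS10 and RPL17, at under 5 CPM, most.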
